A study of Mus musculus with 12 samples.

Results

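The complement components and receptors described here are 9 genes that macrophages express: C1qa, C1qb, C1qc, C2, C3, Cfb, Cfp, C3ar1 and C5ar1. They were chosen by symbol, as members of the complement system, out of 54532 genes in the deposited count table. Each symbol matched 1 row, and all 9 were among the 14286 genes that passed the filter on low counts.

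RNA was sequenced from mouse bone marrow-derived macrophages, which are cells grown from marrow with macrophage colony-stimulating factor (M-CSF). The mice were 8 weeks old and of the genotypes Hdac3f/f and Lyz2-Cre-Hdac3f/f. Hdac3 encodes a histone deacetylase, an enzyme that removes acetyl groups from histones as part of corepressor complexes. Both genotypes carried the floxed Hdac3 allele. In Lyz2-Cre-Hdac3f/f mice the Cre recombinase is made from the Lyz2 locus, which is active in myeloid cells. Cells were cultured in DMEM with 10 ng/ml M-CSF, 10% serum and 1% penicillin/streptomycin, and were left untreated or given 500 ng/ml lipopolysaccharide (LPS), a bacterial cell wall component that activates Toll-like receptor 4, for 4 h. The 4 groups were Hdac3f/f untreated, Hdac3f/f with LPS, Lyz2-Cre-Hdac3f/f untreated and Lyz2-Cre-Hdac3f/f with LPS, with 3 libraries each. The labels do not say whether the libraries came from separate animals or cultures, so p-values measure only the spread between these libraries, which may be technical.

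Complement is a cascade of proteases, binding proteins and receptors that marks targets for uptake and recruits leukocytes. In the classical arm, C1q, a hexamer built from A, B and C chains, binds antibody complexes or other surfaces, and C2 then supplies the catalytic part of an enzyme that cleaves C3. In the alternative arm, factor B (Cfb) plays the corresponding catalytic part, and properdin (Cfp) stabilises that enzyme. The fragments C3a and C5a act on the G protein-coupled receptors encoded by C3ar1 and C5ar1. The liver makes most circulating complement, and macrophages are a main source of C1q and a local source of C3, factor B and properdin.

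The genes lie on the minus strand of 4 autosomes and of the X chromosome in mm10, with the same coordinates in GENCODE M21. The C1q chains form a cluster on chromosome 4, with C1qb (ENSMUSG00000036905) at 136880129 to 136886187, C1qc (ENSMUSG00000036896) at 136889804 to 136893065 and C1qa (ENSMUSG00000036887) at 136895917 to 136898803. On chromosome 17, Cfb (ENSMUSG00000090231) spans 34856374 to 34862518 and lies next to C2 (ENSMUSG00000024371), at 34862604 to 34898265. C3 (ENSMUSG00000024164) lies on the same chromosome at 57203970 to 57228136. Cfp (ENSMUSG00000001128) is at 20925454 to 20931555 on chromosome X, C3ar1 (ENSMUSG00000040552) at 122847138 to 122856161 on chromosome 6, and C5ar1 (ENSMUSG00000049130) at 16246743 to 16259540 on chromosome 7.

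The promoters of C3 and C1qb are shown because C3 had the largest LPS response of the members in Hdac3f/f, and C1qb had the largest genotype difference with LPS. Each sequence is the 250 bases 5′ of the annotated start, from RefSeq (GRCm38.p6), on the minus strand, written 5′ to 3′. The C3 window is chr17:57228137-57228386 and the C1qb window is chr4:136886201-136886450. Capitals mark matches to a motif of the C/EBP type, TTGNGNAA.
C3: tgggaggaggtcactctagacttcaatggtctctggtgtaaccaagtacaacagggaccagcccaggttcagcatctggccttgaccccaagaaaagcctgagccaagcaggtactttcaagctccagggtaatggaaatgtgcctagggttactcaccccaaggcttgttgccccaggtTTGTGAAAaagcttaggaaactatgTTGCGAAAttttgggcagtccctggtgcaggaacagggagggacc
C1qb: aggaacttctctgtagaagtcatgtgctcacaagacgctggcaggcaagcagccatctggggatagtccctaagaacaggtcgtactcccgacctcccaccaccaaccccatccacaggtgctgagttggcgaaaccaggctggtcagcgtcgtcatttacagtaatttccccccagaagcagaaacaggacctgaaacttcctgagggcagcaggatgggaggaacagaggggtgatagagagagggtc

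The C3 window held 2 matches to TTGNGNAA, at -70 to -63 and at -45 to -38 from the start, and C1qb held none. Of 32841 promoter windows of this length, 11.7% held at least 1 match on either strand. The other motifs searched on both strands were the NF-kB consensus, found in 7.25% of all windows, a motif of the interferon-stimulated response element type (GAAA repeated after any 2 bases) in 2.98%, TTCNNNGAA in 7.02% and the PU.1-type GAGGAAGT in 2.44%. None of these 4 was found in the C3 or C1qb window. The RefSeq table used here matched 6 of the 9 members, without C1qa, C2 and Cfb. Among the other matched members, C1qc held an NF-kB consensus match at -41 to -32 and a PU.1-type match at -195 to -188, and C5ar1 held a C/EBP-type match at -157 to -150. These are matches of letters and were not measured as binding.

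Counts per library totalled 16553432 to 18706990, and 3 counts, the limit that a count of 0 allows, corresponded to 0.160 to 0.181 CPM (counts scaled to the same total in every library). That limit rests on library totals alone. All other CPM values are scaled by trimmed-mean (TMM) factors, which ranged from 0.716 to 1.26. Differences are log2 fold changes with standard errors from edgeR's quasi-likelihood test, fitted on all 12 libraries with Benjamini-Hochberg adjustment over 14286 genes, and a gene was called at an adjusted p under 0.05. The levels of Hdac3 itself were 38.4 ± 1.86 CPM (SD, n = 3) in untreated Hdac3f/f and 34.9 ± 1.75 in untreated Lyz2-Cre-Hdac3f/f, and the difference was not called (-0.14 ± 0.09, edgeR adjusted p = 0.352). With LPS it was 39.5 ± 1.08 and 37.1 ± 2.37 CPM (adjusted p = 0.473). The count covers the whole gene, so it does not measure recombination of the floxed exons. Untreated Lyz2-Cre-Hdac3f/f replicate 1 stood apart in Lyz2, with 31.0 CPM against 5181 and 5637 CPM in the other two libraries of its group. Without that library, each of the 27 member values that rest on its group (its LPS response, the untreated genotype difference and the interaction) stayed on the same side of the threshold and moved by at most 0.15. Of these 27, 8 were called with all 12 libraries, and 2 that were not called changed sign. Of 15 such values named below for other complement genes, 3 calls were lost, those of C1ra, Serping1 and Vsig4, and each is given where the gene is described.

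Macrophage markers summed to 5191 to 5699 CPM in untreated Hdac3f/f and 5721 to 6137 CPM in untreated Lyz2-Cre-Hdac3f/f, and to 10435 to 10708 and 11473 to 11767 CPM with LPS. Each of the 8 was detected in every group. Cd14 carried most of the rise with LPS, from 202 to 4048 CPM in Hdac3f/f and from 201 to 4725 CPM in Lyz2-Cre-Hdac3f/f. Mrc1 fell, from 283 to 75.3 and from 273 to 87.0 CPM. Between the untreated genotypes, 3 means were higher in Lyz2-Cre-Hdac3f/f with separate ranges. They were those of Csf1r (1831 CPM in Hdac3f/f and 2225 in Lyz2-Cre-Hdac3f/f), Mertk (123 and 184) and Fcgr1 (336 and 421). Itgam (113 and 48.6) was lower with separate ranges. The ranges of Adgre1 (means 1649 and 1826), Cd68 (940 and 737), Cd14 and Mrc1 overlapped. With LPS, Csf1r (1797 and 2312) and Cd14 were higher in Lyz2-Cre-Hdac3f/f with separate ranges. Cd68 (1092 and 607), Fcgr1 (981 and 560) and Itgam (184 and 74.4) were lower with separate ranges. Those of Adgre1, Mertk and Mrc1 overlapped. The other marker lists also differed between the untreated genotypes. Neutrophil markers (8 genes) summed to 219 to 382 CPM in untreated Hdac3f/f and 56.1 to 160.3 CPM in untreated Lyz2-Cre-Hdac3f/f, and B and T lymphocyte markers (7 genes) to 196 to 342 and 109 to 170.1 CPM. Dendritic cell markers (7 genes, with Cd209a at 0 in every group) summed to 4.50 to 6.07 and 10.54 to 19.4 CPM, endothelial markers (5 genes) to 29.4 to 82.7 and 98.7 to 172 CPM, and mast cell and basophil markers (6 genes) to 36.0 to 42.4 and 58.8 to 90.1 CPM. None of these summed ranges overlapped between the untreated genotypes. Ccr7 carried most of the dendritic sums, at 3.60 CPM in untreated Hdac3f/f and 10.7 CPM in untreated Lyz2-Cre-Hdac3f/f. It rose with LPS to 33.9 and 39.5 CPM, with ranges that overlapped between genotypes. No other dendritic marker had a group mean over 3.45 CPM. Cd4 made up most of the lymphocyte sums, at 242 CPM in untreated Hdac3f/f and 130 CPM in untreated Lyz2-Cre-Hdac3f/f, and 102 and 54.8 CPM with LPS. Cd3e (0.864 and 2.31 CPM untreated, 0.727 and 2.25 with LPS) and Cd3d (1.28 and 2.87, 1.70 and 3.88) were instead higher in Lyz2-Cre-Hdac3f/f. No B cell marker had a group mean over 0.474 CPM. With LPS, the sums of the neutrophil, endothelial and mast cell lists overlapped between genotypes. Within the endothelial list, Kdr was lower in Lyz2-Cre-Hdac3f/f, at 47.8 to 55.9 CPM against 68.9 to 78.9 CPM in Hdac3f/f. Pecam1 (17.6 to 21.8 against 7.48 to 13.5 CPM), Emcn and Tek were higher there with separate ranges, and the ranges of Cdh5 overlapped. Within the mast cell list, Hdc was lower in Lyz2-Cre-Hdac3f/f, at 25.5 to 41.5 CPM against 67.8 to 99.5 CPM in Hdac3f/f. Cpa3, Fcer1a, Ms4a2 and Mcpt8 were instead higher in Lyz2-Cre-Hdac3f/f, with separate ranges. Mcpt8, for example, was at 30.3 to 49.4 CPM against 17.2 to 23.6 CPM. The ranges of Gata2 overlapped. The dendritic list with LPS was at 33.8 to 40.2 CPM in Hdac3f/f and 42.3 to 51.6 CPM in Lyz2-Cre-Hdac3f/f. The lymphocyte list was at 92.5 to 123 and 59.0 to 70.7 CPM. Stromal markers (7 genes), described further with Serping1 below, had separate ranges between genotypes. They summed to 281 to 1349 CPM in untreated Hdac3f/f and 15.4 to 128 CPM in untreated Lyz2-Cre-Hdac3f/f, and to 809 to 1673 and 33.5 to 42.8 CPM with LPS. The part of these cells in the genotype differences of the members was not tested. In bulk RNA, fewer cells of a type and less RNA per cell cannot be told apart.

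The 3 C1q chains were the most abundant members in every group when counts were divided by gene length. In untreated Hdac3f/f, C1qa reached 2853 RPKM (CPM per kilobase of gene length), C1qb 2576 and C1qc 1824, and the ranges of C1qa and C1qb overlapped. Next came Cfp at 557 RPKM, C5ar1 at 230, C3ar1 at 179 and C3 at 153, of which only the last pair overlapped. Cfb at 6.23 RPKM and C2 at 1.17 RPKM stood far below. With LPS, C3 moved above both receptors in Hdac3f/f, to 679 RPKM against 495 for C5ar1 and 325 for C3ar1. In untreated Lyz2-Cre-Hdac3f/f the level of C3 was already above both receptors, at 301 RPKM against 210 for C3ar1 and 177 for C5ar1, whose ranges overlapped each other. Together, the 9 genes took 1.18 to 1.59% of all counts, and the C1q chains alone 0.614 to 1.16%.

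**Figure D1:**
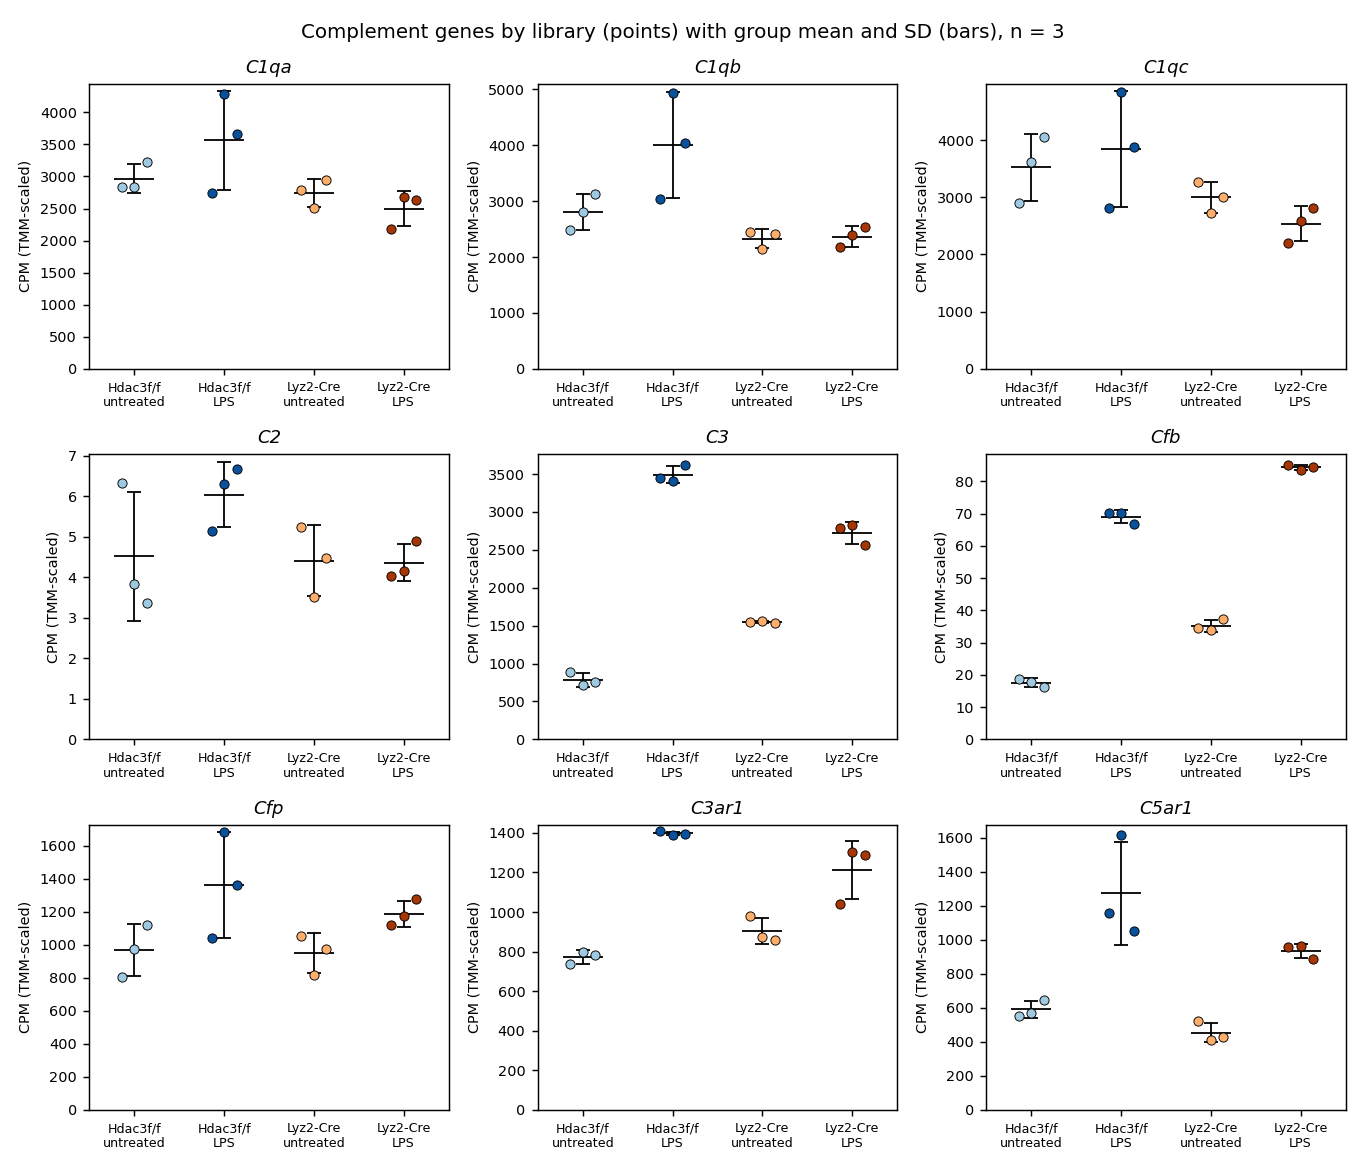
TMM-scaled CPM of each of the 9 complement genes in the 12 libraries (points), with the group mean and SD (bars, n = 3), each panel on its own axis from 0. C3 and Cfb show 4 separate levels, with untreated Lyz2-Cre-Hdac3f/f between untreated and LPS-treated Hdac3f/f.

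The first question was which complement genes changed after 4 h of LPS in Hdac3f/f macrophages, which lack Cre. C3, Cfb, C3ar1 and C5ar1 rose clearly, by 4.43-fold, 3.92-fold, 1.81-fold and 2.16-fold, and their libraries with and without LPS did not overlap. C1qb and Cfp rose by 1.43-fold and 1.41-fold with overlapping libraries. C1qa, C1qc and C2 were not called. In all, 6 of 9 members were higher and 0 were lower, beside 28.0% of all tested genes higher and 32.1% lower (60.1% in either direction). Separate ranges were found for 4 members, all higher, beside 28.3% of all genes higher and 33.1% lower (61.4% in either direction). The members' median log2 fold change was 0.52 and that of all genes -0.08.

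C3, whose product is the central protein on which all arms of the cascade converge, was counted at 893, 718 and 751 CPM in the untreated Hdac3f/f libraries. With LPS it was counted at 3451, 3407 and 3617 CPM. Each LPS library thus lay far above each untreated one, and the difference was 2.15 ± 0.11 (edgeR adjusted p = 3.24e-09). Cfb was counted at 18.7, 17.9 and 16.2 CPM without LPS and at 70.04, 70.2 and 66.8 CPM with it, a difference of 1.97 ± 0.09 (adjusted p = 1.77e-09). Both genes supply the enzyme of the alternative arm, C3 as substrate and scaffold and factor B as protease.

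Properdin, encoded by Cfp, showed a wide spread, with 805, 975 and 1118 CPM without LPS and 1042, 1683 and 1362 CPM with LPS. Its lowest LPS library lay below the highest untreated library. The difference was 0.50 ± 0.17 (edgeR adjusted p = 0.0239). That call was lost without untreated replicate 1 (0.38, adjusted p = 0.0877), untreated replicate 2 (0.51, 0.0559), LPS replicate 2 (0.32, 0.125) or LPS replicate 3 (0.49, 0.0558), and when only these 2 groups were fitted (0.50, 0.0599). It turned to -0.15 (adjusted p = 0.304) with library totals in place of TMM factors.

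C2, the classical arm's protease, was counted at 6.33, 3.85 and 3.38 CPM without LPS and at 5.14, 6.31 and 6.68 CPM with LPS, from 66 to 146 counts in any library of the series. Untreated replicate 1 lay within the LPS libraries, and the difference of 0.41 ± 0.25 was not called (edgeR adjusted p = 0.164). Without that library it was 0.74 (adjusted p = 0.0134), and with library totals -0.25. Zbtb12, on the opposite strand, overlaps C2 and held 2167 counts over all libraries against 1032 for C2. Whether counting used strand is not given in the sources used here, so reads of these genes cannot be told apart.

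The C1q chains spread widely with LPS in Hdac3f/f. C1qa was counted at 2829, 2841 and 3233 CPM without LPS and at 2737, 4283 and 3666 CPM with it. C1qb was counted at 2478, 2800 and 3129 CPM without LPS and at 3037, 4942 and 4047 CPM with it. C1qc was counted at 2893, 3625 and 4047 CPM without LPS and at 2814, 4839 and 3874 CPM with it. LPS replicate 1 was the lowest and replicate 2 the highest LPS library for each chain, and the LPS range overlapped the untreated range for all 3. The differences were 0.26 ± 0.16 for C1qa (edgeR adjusted p = 0.161), 0.52 ± 0.16 for C1qb (0.0138) and 0.13 ± 0.19 for C1qc (0.585). Without LPS replicate 1, C1qa was called higher (0.43, adjusted p = 0.0132), and without LPS replicate 2 the call for C1qb was lost (0.34, 0.0746).

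The sign of the C1q response to LPS depended on the scaling of libraries. With library totals in place of TMM factors, the differences in Hdac3f/f were -0.39 for C1qa (edgeR adjusted p = 0.0102), -0.13 for C1qb (0.319) and -0.52 for C1qc (0.00517). That scaling moved the median of all genes by -0.64, from -0.08 to -0.72. It called 2086 genes higher and 8242 lower, against 3993 and 4591 with TMM. In Hdac3f/f each C1q chain lay above the median of all genes with TMM. Changing the scaling moves all genes by nearly the same amount, so its place with library totals is not separate evidence.

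Both anaphylatoxin receptors rose with LPS in Hdac3f/f. C3ar1, the C3a receptor, was counted at 735, 800.1 and 783 CPM without LPS and at 1408, 1392 and 1396 CPM with it, a difference of 0.86 ± 0.11 (edgeR adjusted p = 1.51e-05). With library totals it was 0.22 (adjusted p = 0.0514). C5ar1, the main C5a receptor, was counted at 551, 571 and 648 CPM without LPS and at 1155, 1616 and 1049 CPM with it, a difference of 1.11 ± 0.15 (adjusted p = 3.86e-05). Within the LPS libraries C3ar1 varied little, whereas replicate 2 carried the highest C5ar1 level.

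In Lyz2-Cre-Hdac3f/f macrophages LPS raised Cfb, C5ar1, C3 and C3ar1, by 2.40-fold, 2.06-fold, 1.76-fold and 1.34-fold. The 4 called genes were all higher and 0 were lower, beside 25.2% of all tested genes higher and 27.7% lower (52.9% in either direction). Separate ranges were found for 5 members, all higher, beside 30.9% of all genes higher and 34.9% lower (65.8% in either direction). The members' median was 0.32 and that of all genes -0.08. No C1q chain and neither C2 nor Cfp was called.

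C3 was counted at 1543, 1563 and 1533 CPM in the untreated Lyz2-Cre-Hdac3f/f libraries and at 2793, 2825 and 2561 CPM with LPS, a difference of 0.82 ± 0.11 (edgeR adjusted p = 2.67e-05). Cfb was counted at 34.6, 33.8 and 37.2 CPM without LPS and at 84.9, 83.6 and 84.4 CPM with it, a difference of 1.26 ± 0.09 (adjusted p = 1.16e-07). Both genes were thus tightly grouped and fully separated by treatment.

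C3ar1 was counted at 979, 874 and 859 CPM without LPS and at 1042, 1304 and 1289 CPM with it (0.42 ± 0.11, edgeR adjusted p = 0.00481). C5ar1 was counted at 522, 413 and 429 CPM without LPS and at 958, 962 and 887 CPM with it (1.04 ± 0.15, adjusted p = 8.87e-05). The libraries with and without LPS did not overlap for either receptor, and with library totals the C3ar1 difference was 0.03 (adjusted p = 0.765). Cfp was counted at 1055, 817 and 975 CPM without LPS and at 1118, 1171 and 1274 CPM with it (0.32 ± 0.17, adjusted p = 0.132). Its libraries did not overlap, yet the difference was not called. It was called when only these 2 groups were fitted (adjusted p = 0.0278) or without Hdac3f/f LPS replicate 1 (0.35, 0.0491), and was -0.06 with library totals.

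The C1q chains in Lyz2-Cre-Hdac3f/f differed little between treatments on the TMM scale. C1qa was counted at 2788, 2505 and 2941 CPM without LPS and at 2179, 2675 and 2625 CPM with it (-0.14 ± 0.16, edgeR adjusted p = 0.478). C1qb was counted at 2441, 2140 and 2407 CPM and at 2171, 2394 and 2532 CPM (0.02 ± 0.16, adjusted p = 0.916). C1qc was counted at 3263, 2731 and 2997 CPM and at 2206, 2584 and 2814 CPM (-0.24 ± 0.19, adjusted p = 0.296). Each chain's ranges overlapped. C1qa and C1qc lay below the median of all genes (-0.08) and C1qb above it. With library totals all 3 were called lower, C1qa by -0.53 (adjusted p = 0.00203), C1qb by -0.37 (0.0157) and C1qc by -0.63 (0.00208), while the median of all genes moved by -0.39, with 2109 genes called higher and 6463 lower against 3606 and 3958. C2 was counted at 5.25, 3.51 and 4.48 CPM without LPS and at 4.04, 4.16 and 4.89 CPM with it (-0.01 ± 0.25, adjusted p = 0.966).

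The difference between genotypes without LPS was carried by the same pair of alternative-arm genes. C3 and Cfb were higher in untreated Lyz2-Cre-Hdac3f/f than in untreated Hdac3f/f macrophages, by 0.97 and 1.00 on the log2 scale (1.96-fold for C3), and their libraries did not overlap. The other 7 members were not called, so 2 of 9 were higher and 0 lower, beside 5.12% of all tested genes higher and 6.66% lower (11.8% in either direction). The members' median was -0.04 and that of all genes 0.03. The comparisons share libraries, since each group enters both an LPS response and a genotype difference, so their values are not independent.

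The C3 difference was 0.97 ± 0.11 (edgeR adjusted p = 0.000193), and that of Cfb 1.00 ± 0.09 (adjusted p = 6.1e-05). Without Lyz2-Cre-Hdac3f/f replicate 1, the library with low Lyz2, they were 0.97 ± 0.12 (adjusted p = 0.00102) and 1.01 ± 0.11 (0.00039). In the authors' deposited table, which gives Hdac3f/f over Lyz2-Cre-Hdac3f/f and so the opposite sign, these were -0.94 for C3 and -0.96 for Cfb on the log2 scale. C1qb and C5ar1 had separate ranges, lower in Lyz2-Cre-Hdac3f/f, without being called (-0.27 ± 0.16, adjusted p = 0.292, and -0.38 ± 0.15, 0.129). C3ar1 had separate ranges, higher in Lyz2-Cre-Hdac3f/f (0.23 ± 0.11, adjusted p = 0.183). Separate ranges were thus found for 5 members, 3 higher and 2 lower, beside 36.5% of all genes in either direction. For C5ar1 the adjusted p in the authors' deposited table was 0.0125, and without Hdac3f/f LPS replicate 2 it was called here too (-0.40, edgeR adjusted p = 0.0333).

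C1qa, C1qc, C2 and Cfp differed little between untreated genotypes, by -0.11 ± 0.16 (edgeR adjusted p = 0.662), -0.23 ± 0.19 (0.432), -0.04 ± 0.24 (0.931) and -0.03 ± 0.17 (0.938). Their libraries overlapped.

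With LPS, more members differed between genotypes, and most were lower in Lyz2-Cre-Hdac3f/f. C1qa, C1qb, C1qc, C3 and C5ar1 were called lower and Cfb higher, so 5 of 9 were lower and 1 higher, beside 16.9% of all tested genes lower and 15.7% higher (32.6% in either direction). The members' median was -0.44 and that of all genes 0.02. Every member except Cfp had ranges that did not overlap between genotypes, 7 lower and 1 higher, beside 22.7% of all genes lower and 20.5% higher (43.2% in either direction).

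All 3 C1q chains were lower with LPS in Lyz2-Cre-Hdac3f/f. C1qb gave the largest of these differences, at -0.76 ± 0.16 (edgeR adjusted p = 0.00444), with 2366 ± 182 CPM (SD, n = 3) against 4008 ± 953 CPM. C1qc gave -0.60 ± 0.19 (adjusted p = 0.028), with 2535 ± 307 CPM against 3843 ± 1013 CPM, and its ranges met within 1 CPM, at 2814 CPM. C1qa gave -0.51 ± 0.16 (adjusted p = 0.0243), with 2493 ± 273 CPM against 3562 ± 778 CPM. Only C1qb was called under all 20 alternative settings (-0.93 to -0.48, highest adjusted p = 0.026). With only the 2 groups compared, C1qa gave -0.50 (adjusted p = 0.0588) and C1qc -0.59 (0.0506). The call for C1qa was lost without Hdac3f/f LPS replicate 2 (-0.36, adjusted p = 0.114) or 3 (-0.49, 0.0755) and without Lyz2-Cre-Hdac3f/f LPS replicate 1 (-0.42, 0.11). The call for C1qc was lost without the same 3 libraries (-0.40, 0.137; -0.59, 0.0747; -0.50, 0.115) and without Lyz2-Cre-Hdac3f/f LPS replicate 2 (-0.61, 0.0729).

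C3, which was higher in Lyz2-Cre-Hdac3f/f without LPS, was lower there with LPS, at 2726 ± 144 CPM (SD, n = 3) against 3491 ± 111 CPM (-0.36 ± 0.11, edgeR adjusted p = 0.0217). Cfb remained higher, at 84.3 ± 0.689 CPM against 69.01 ± 1.95 CPM (0.29 ± 0.09, adjusted p = 0.0265). The call for C3 was lost without Hdac3f/f LPS replicate 3 (-0.32, adjusted p = 0.0739) or any Lyz2-Cre-Hdac3f/f LPS library (replicate 1, -0.37, 0.0581, replicate 2, -0.38, 0.0501, replicate 3, -0.31, 0.0723), and with library totals the difference was -0.09 (0.577). Leaving out the same libraries ended the call for Cfb, at 0.27 (0.0827) without Hdac3f/f LPS replicate 3, and 0.29 (0.0741), 0.30 (0.0697) and 0.29 (0.056) without Lyz2-Cre-Hdac3f/f LPS replicates 1, 2 and 3. Both calls were also lost with no filter on low counts (-0.37, 0.0515 for C3 and 0.28, 0.176 for Cfb) and with only the 2 groups compared (-0.34, 0.0518 and 0.30, 0.0618), and that of Cfb with DESeq2 size factors (0.24, 0.0514). In the authors' deposited table C3 was again lower in Lyz2-Cre-Hdac3f/f (0.37 as Hdac3f/f over Lyz2-Cre-Hdac3f/f, adjusted p = 0.0127), and Cfb had an adjusted p of 0.0933.

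C5ar1 was lower in Lyz2-Cre-Hdac3f/f with LPS, at 936 ± 42.2 CPM (SD, n = 3) against 1273 ± 302 CPM (-0.44 ± 0.15, edgeR adjusted p = 0.0417). This call was lost under 10 of 20 alternative settings. Without Hdac3f/f LPS replicate 2 the difference was -0.24 (adjusted p = 0.185). Without Hdac3f/f untreated replicate 2, Lyz2-Cre-Hdac3f/f untreated replicate 2 or 3, or any Lyz2-Cre-Hdac3f/f LPS library it was -0.46 to -0.40 (adjusted p from 0.051 to 0.103). C3ar1 was at 1212 ± 147 CPM against 1399 ± 8.67 CPM (-0.21 ± 0.11, adjusted p = 0.152), Cfp at 1188 ± 79.5 CPM against 1362 ± 321 CPM (-0.20 ± 0.17, 0.396), and C2 at 4.37 ± 0.459 CPM against 6.04 ± 0.802 CPM (-0.47 ± 0.25, 0.164). With library totals C3ar1 turned to 0.06 and Cfp to 0.09, and the median of all genes moved by 0.27, with 4465 genes called higher and 1329 lower against 2243 and 2413. The same scaling left C1qa (-0.23, adjusted p = 0.129), C1qc (-0.32, 0.0898) and C5ar1 (-0.16, 0.314) uncalled.

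**Figure D2:**
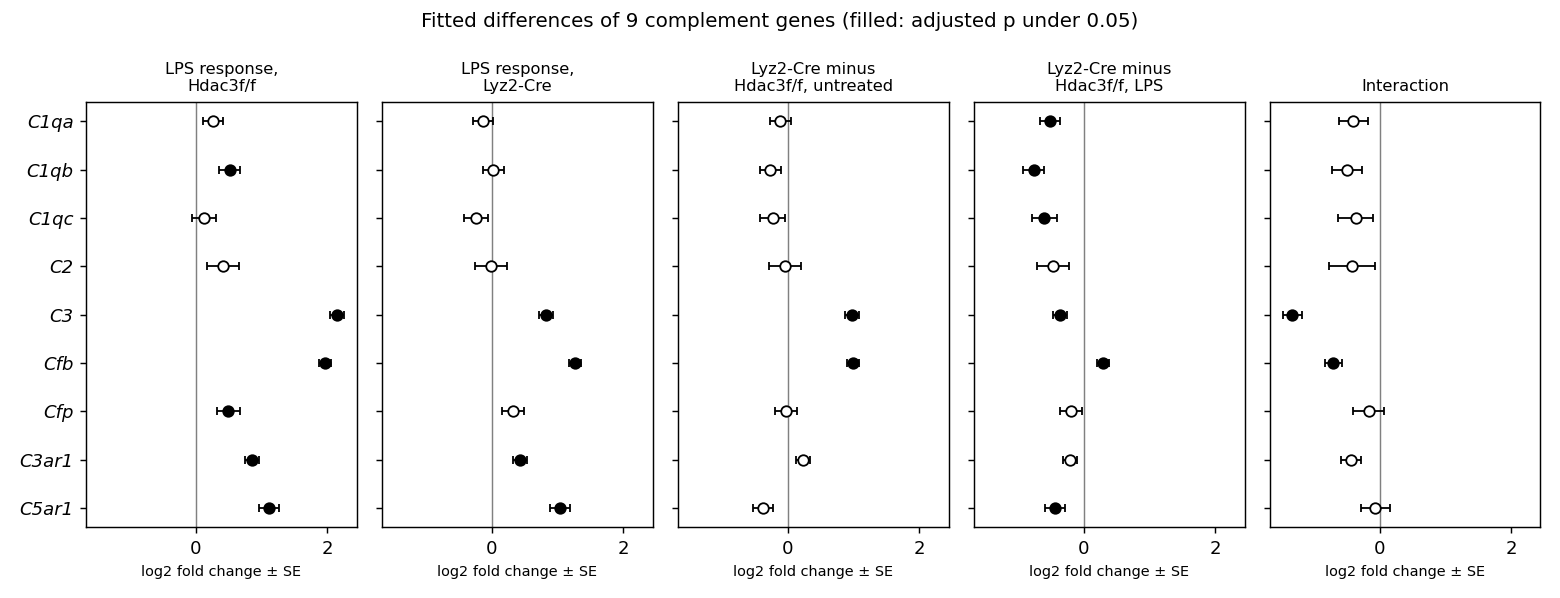
Log2 fold changes ± SE of the 9 complement genes in 5 comparisons, from edgeR's quasi-likelihood fit on all 12 libraries, with filled points for an adjusted p under 0.05. C3 and Cfb are higher in Lyz2-Cre-Hdac3f/f without LPS, and the LPS response of both is smaller there, at an interaction of -1.33 for C3 and -0.71 for Cfb.

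The test of whether the LPS response itself differed between genotypes gave 2 of 9 members with a smaller response in Lyz2-Cre-Hdac3f/f, C3 and Cfb, and 0 with a larger one, beside 5.54% of all tested genes with a smaller and 2.58% with a larger response (8.12% in either direction). The members' median was -0.43 and that of all genes 0.02. C3 rose by 4.43-fold in Hdac3f/f and by 1.76-fold in Lyz2-Cre-Hdac3f/f, an interaction of -1.33 ± 0.15 (edgeR adjusted p = 0.000511). Cfb rose by 3.92-fold and 2.40-fold, an interaction of -0.71 ± 0.13 (adjusted p = 0.00551).

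The C3 interaction was called under all 19 alternative settings, at -1.43 to -1.07. The Cfb interaction was lost only with library totals, at -0.46 (edgeR adjusted p = 0.0797). Without untreated Lyz2-Cre-Hdac3f/f replicate 1, the values were -1.33 ± 0.17 (adjusted p = 0.00155) for C3 and -0.72 ± 0.15 (0.0162) for Cfb.

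For the C1q chains, the interaction was -0.40 ± 0.22 for C1qa (edgeR adjusted p = 0.303), -0.49 ± 0.23 for C1qb (0.218) and -0.37 ± 0.26 for C1qc (0.449). Their lower level with LPS in Lyz2-Cre-Hdac3f/f is therefore not shown to be a changed response, although C1qb was called without Hdac3f/f LPS replicate 1 (-0.64, 0.0361). The receptors gave -0.43 ± 0.15 for C3ar1 (adjusted p = 0.1) and -0.07 ± 0.22 for C5ar1 (0.893). C2 gave -0.43 ± 0.35 (0.511) and Cfp -0.17 ± 0.24 (0.731). With library totals C5ar1 turned to 0.19 and Cfp to 0.09. C3ar1 was called with DESeq2 (-0.45, adjusted p = 0.0265). With library totals, 71.7% of genes called in the interaction were higher against 31.8% with TMM, and the median of all genes moved by 0.25.

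Other complement genes were read from a list of 47, of which 23 passed the filter on low counts. These were 7 of 15 recognition molecules and proteases, 1 of 8 alternative-arm and terminal genes, 9 of 17 regulators and 6 of 7 receptors and binding proteins. In Hdac3f/f, LPS raised 8 of the 23 and lowered 6, beside 28.0% and 32.1% of all genes. In Lyz2-Cre-Hdac3f/f it raised 5 and lowered 5, beside 25.2% and 27.7%. Between genotypes without LPS, 2 were higher and 6 lower in Lyz2-Cre-Hdac3f/f, beside 5.12% and 6.66% of all genes. With LPS, 2 were higher and 8 lower, beside 15.7% and 16.9%. The medians of the 23 genes in these 4 comparisons were 0.24, 0.00, -0.05 and -0.33, beside -0.08, -0.08, 0.03 and 0.02 for all genes. In the interaction, 1 of the 23 had a larger and 1 a smaller response in Lyz2-Cre-Hdac3f/f, beside 2.58% and 5.54% of all genes.

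**Figure D3:**
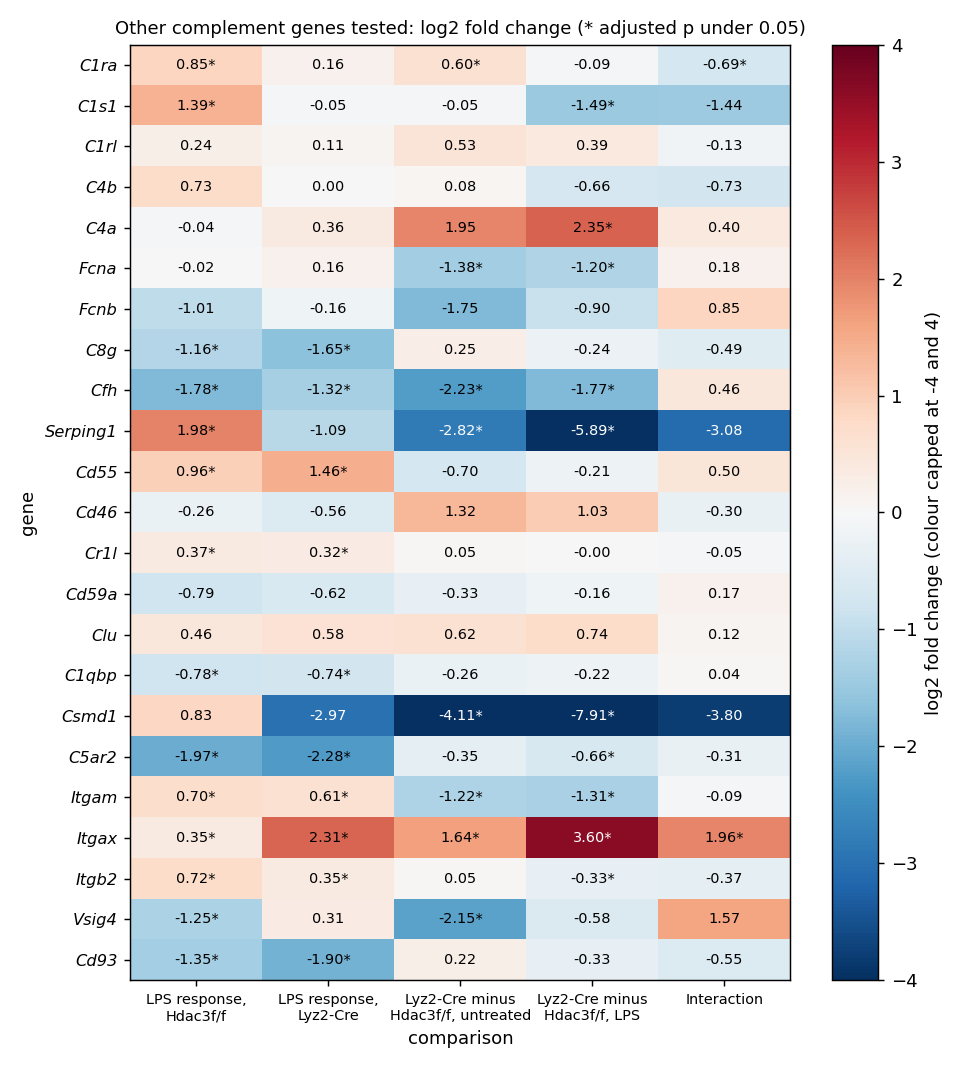
Log2 fold changes of the 23 tested genes of the complement list in 5 comparisons (colour, capped at -4 and 4), with a star at an adjusted p under 0.05. Itgax is higher and Serping1 lower in Lyz2-Cre-Hdac3f/f, and C5ar2 and Cd93 fall with LPS in both genotypes, while Csmd1 had 0 counts in Lyz2-Cre-Hdac3f/f with LPS and its colour there depends on the prior count.

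Among the proteases, C1ra, which cleaves C1s in the C1 complex, rose with LPS in Hdac3f/f from 23.9, 19.7 and 19.8 CPM to 35.6, 33.9 and 44.5 CPM (0.85 ± 0.13, edgeR adjusted p = 7.56e-05), and with library totals the difference was 0.20 (0.208). It was already at 34.01, 29.8 and 32.5 CPM in untreated Lyz2-Cre-Hdac3f/f (0.60 ± 0.13 over Hdac3f/f, adjusted p = 0.0106). With LPS it was at 34.6, 34.4 and 38.4 CPM there. The interaction was -0.69 ± 0.18 (adjusted p = 0.0334) and was lost under 10 of 19 alternative settings. These were library totals (-0.43, 0.17) and leaving out untreated Hdac3f/f replicate 2 or 3, Hdac3f/f LPS replicate 3 or any Lyz2-Cre-Hdac3f/f library (-0.74 to -0.53, without untreated Lyz2-Cre-Hdac3f/f replicate 1 -0.64 and 0.0818). Without untreated Hdac3f/f replicate 2 the untreated difference was 0.55 (0.0526). Fcna, which encodes a ficolin that starts the lectin arm, was lower in Lyz2-Cre-Hdac3f/f both without LPS (-1.38 ± 0.29, adjusted p = 0.00981) and with it (-1.20 ± 0.29, 0.00836).

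Serping1, which encodes the C1 inhibitor, was lower in Lyz2-Cre-Hdac3f/f. It was counted at 13.6, 2.68 and 2.91 CPM in untreated Hdac3f/f and at 0.389, 1.56 and 0.746 CPM in untreated Lyz2-Cre-Hdac3f/f (-2.82 ± 0.67, edgeR adjusted p = 0.0184). With LPS it was counted at 18.6, 19.7 and 38.0 CPM in Hdac3f/f, against 0.181, 0.462 and 0.627 CPM in Lyz2-Cre-Hdac3f/f, which are 3, 8 and 10 counts. This difference was -5.89 ± 0.77 (adjusted p = 0.000295), the lowest of these libraries being at the counting limit. The rise with LPS in Hdac3f/f was 1.98 ± 0.56 (adjusted p = 0.00774), and with library totals 1.30 (0.068). The untreated difference was not called without Lyz2-Cre-Hdac3f/f replicate 1 (-2.46, 0.0665) or 3 (-2.70, 0.0698), with limma-voom (-2.61, 0.0693) or with only the 2 groups compared (-2.85, 0.0525).

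The summed level of the 7 stromal markers was also lower in Lyz2-Cre-Hdac3f/f. They summed to 281 to 1349 CPM in untreated Hdac3f/f and 809 to 1673 CPM with LPS, but to 15.4 to 128 and 33.5 to 42.8 CPM in Lyz2-Cre-Hdac3f/f. Col1a1 and Col1a2 carried most of the sum in Hdac3f/f, and not every marker moved with Serping1. In Lyz2-Cre-Hdac3f/f, the mean of Pdgfrb rose with LPS from 0.959 to 17.6 CPM, whereas Serping1 did not rise. The part of these markers in the Serping1 difference was not tested.

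**Figure D4:**
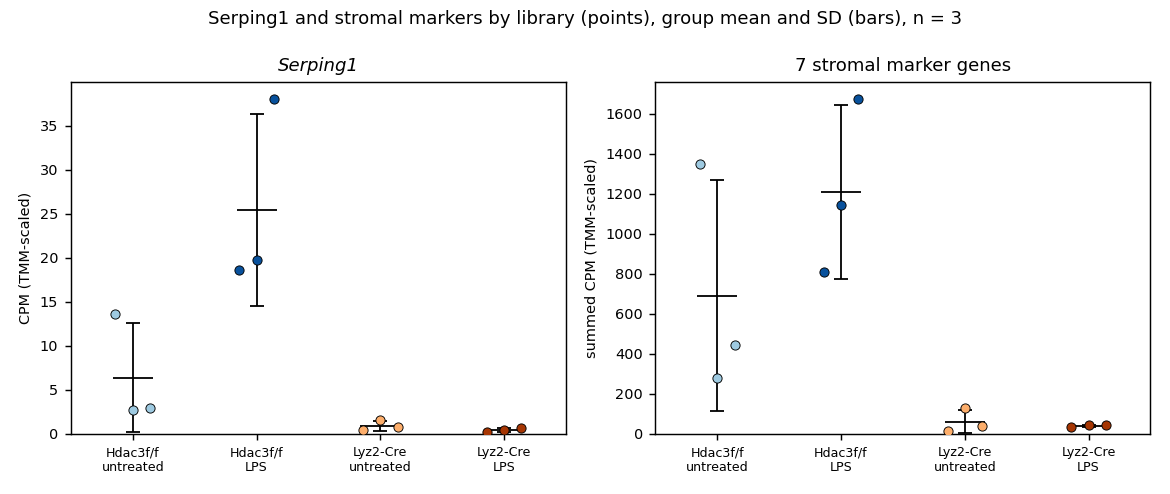
TMM-scaled CPM of Serping1 (left) and the summed level of 7 stromal marker genes (right) in the 12 libraries (points), with the group mean and SD (bars, n = 3). Both are lower in the 6 Lyz2-Cre-Hdac3f/f libraries than in the 6 Hdac3f/f libraries.

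Cd55, a regulator that dissociates the C3-cleaving enzymes, rose with LPS in both genotypes, by 0.96 ± 0.28 in Hdac3f/f (edgeR adjusted p = 0.0101) and by 1.46 ± 0.29 in Lyz2-Cre-Hdac3f/f (0.000903). Without Hdac3f/f LPS replicate 1 the first of these was 0.63 (adjusted p = 0.0605), and with library totals 0.35 (0.331). C1qbp, whose product binds the globular heads of C1q, fell in both genotypes (-0.78 ± 0.13, 0.000195, and -0.74 ± 0.13, 0.000408).

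Among the receptors, C5ar2, the second C5a receptor, moved opposite to C5ar1. It fell with LPS in Hdac3f/f (-1.97 ± 0.18, edgeR adjusted p = 7.11e-07) and in Lyz2-Cre-Hdac3f/f (-2.28 ± 0.18, 3.72e-07). Its mean level went from 8.73 to 2.22 CPM and from 6.86 to 1.41 CPM. Cd93, once described as a C1q receptor, also fell (-1.35 ± 0.14, 2.83e-06, and -1.90 ± 0.14, 1.88e-07). Vsig4, a macrophage receptor for C3b, was lower in untreated Lyz2-Cre-Hdac3f/f, at 2.04 against 9.05 CPM (-2.15 ± 0.51, adjusted p = 0.0187), and its fall with LPS in Hdac3f/f (-1.25 ± 0.50, 0.0439) was lost without untreated Hdac3f/f replicate 2 or 3, any Hdac3f/f LPS library, or untreated Lyz2-Cre-Hdac3f/f replicate 2 (-1.32 to -1.04), and with DESeq2 size factors (-1.19, 0.0538). Its untreated difference was lost without untreated Hdac3f/f replicate 2 or 3 or untreated Lyz2-Cre-Hdac3f/f replicate 1 or 2 (-2.10 to -1.75).

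The integrins that form complement receptors 3 and 4 differed in opposite directions between genotypes. Itgax, the alpha chain of complement receptor 4, was counted at 25.2, 31.2 and 27.3 CPM in untreated Hdac3f/f and at 97.4, 98.1 and 65.9 CPM in untreated Lyz2-Cre-Hdac3f/f (1.64 ± 0.14, edgeR adjusted p = 4.37e-05). With LPS it was counted at 36.7, 33.4 and 37.0 CPM and at 438, 444 and 418 CPM, a 12.1-fold difference (3.60 ± 0.15, adjusted p = 1.15e-07). Every Lyz2-Cre-Hdac3f/f library lay above every Hdac3f/f library. Its LPS response was larger in Lyz2-Cre-Hdac3f/f by 1.96 ± 0.20 (adjusted p = 0.000347). Itgam, the alpha chain of complement receptor 3 and also a macrophage marker, was lower in Lyz2-Cre-Hdac3f/f, at 48.6 against 113 CPM without LPS (-1.22 ± 0.12, 0.000115) and 74.4 against 184 CPM with it (-1.31 ± 0.12, 4.87e-05). Itgb2, their shared beta chain, rose with LPS by 0.72 ± 0.10 in Hdac3f/f (2.68e-05), which with library totals was 0.093 (0.332), and by 0.35 ± 0.10 in Lyz2-Cre-Hdac3f/f (0.00825), where library totals turned it to -0.036. With LPS it was lower in Lyz2-Cre-Hdac3f/f (-0.33 ± 0.10, 0.0212), which was lost with library totals (-0.061) and without Hdac3f/f LPS replicate 3 or any Lyz2-Cre-Hdac3f/f LPS library (-0.35 to -0.30), with no filter (-0.34, 0.0655) and with only the 2 groups compared (-0.32, 0.0538).

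Correlations of log2 CPM across the 12 libraries are given as a description, since all points share the same libraries and treatments. The C1q chains followed each other, with Pearson's r of 0.93 for C1qa and C1qb, 0.93 for C1qa and C1qc and 0.85 for C1qb and C1qc. C3 followed Cfb (0.96) and C3ar1 (0.93), while C1qc and Cfb gave -0.30. Among the 8976 genes searched for each (8977 for C2), those most like C3 were Dync1h1, Zc3hav1 and Stat2, each at 0.99, and those most like Cfb were Klra2, Pilra and Pilrb1, each at 0.99. Those most like C1qb were Sdc3 (0.99), Plekho2 (0.98) and AI413582 (0.97), and those most like C2 were Timp3 (0.84), H2-Ab1 (0.83) and H2-Aa (0.80).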

How the data were processed

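Total RNA of 12 libraries was sequenced. The deposited table holds read counts per gene, aligned with TopHat2 to mm10 per the submitters' processing notes. The counting tool, annotation and strand setting are not given in the sources used here. The deposited table also holds the authors' FPKM values, group mean signal values, gene length, log2 fold changes and p-values between genotypes. Its test is not named. The authors' FPKM and group mean signal values were not tested here, and the deposited log2 and p-values are quoted where named.

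Counts were tested with edgeR 4.0.16 (quasi-likelihood) in R 4.3.3, with TMM factors, filterByExpr, 1 coefficient per group and all 12 libraries. CPM was divided by the deposited gene length for RPKM. Calls used an adjusted p under 0.05. Named are all members and, per comparison, up to 4 called genes of the complement list in each direction with a group mean of at least 5 CPM. The genes most like a member were those with the highest correlation of log2 CPM (prior count 2) over 12 libraries. The alternatives included limma-voom (limma 3.58.1) and DESeq2 1.42.0. The fit was tested on simulated data in which all genes shared the same spread, for the comparisons between pairs of groups. The interaction was not simulated. Members and lists were chosen with earlier results of these data known.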

Additional observations from a re-analysis of the deposited data

Results flagged for a closer look

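The response to LPS differed between genotypes by the edgeR interaction test for 4 of the complement genes described. These were 2 of 9 members and 2 of the 23 tested genes of the complement list, beside 8.12% of all tested genes. A negative value is a smaller response with Cre. For C3 the difference between the responses was -1.33 on the log2 scale, and for Cfb it was -0.71. For C1ra the difference was -0.69, and this call was lost under 10 of 19 alternative settings. For Itgax it was 1.96, a larger response in Lyz2-Cre-Hdac3f/f, with 35.7 ± 2.02 CPM (SD, n = 3) in Hdac3f/f and 433 ± 13.5 CPM in Lyz2-Cre-Hdac3f/f after LPS.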

How the results depend on the processing

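Of 891 alternative values for the members, 833 stayed on the same side of the threshold, 44 lost the call, 9 gained one, and 5 turned sign with a call before or after. Of the 833, 27 also turned sign, none of them called in either fit. The 5 came with library totals in place of TMM factors, in the LPS responses of C1qa (-0.39), C1qb (-0.13), C1qc (-0.52) and Cfp (-0.15) in Hdac3f/f and of C1qb (-0.37) in Lyz2-Cre-Hdac3f/f. Itgb2 (-0.036) in Lyz2-Cre-Hdac3f/f and Hdac3 (-0.59 in Hdac3f/f and -0.30 in Lyz2-Cre-Hdac3f/f) also turned. With library totals, 2 members were called between genotypes with LPS, beside 5794 of all genes, and 1 in the interaction, beside 1582. The complement list then gave 1 gene in the interaction, against 2 of 23 with TMM. With only the 2 groups compared, 1 member was called between genotypes with LPS, beside 3645 of all genes. In the interaction, 4 genes of the list were called without a filter, which called 1455 genes in all. DESeq2 called 5 genes of the list there, and 1747 genes in all. Leaving out 1 library gave 4 to 7 members called in the LPS response of Hdac3f/f, 1 to 6 between genotypes with LPS, and 2 to 3 in the interaction and between untreated genotypes. The list gave 6 to 10 genes between genotypes with LPS and 1 to 4 in the interaction. Over all genes, these ranges were 7823 to 8750 in the LPS response of Hdac3f/f and 779 to 2530 between untreated genotypes. They were 2798 to 6004 between genotypes with LPS and 530 to 1995 in the interaction.

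The labels do not say whether the replicate numbers pair the samples, and the values do not settle it. Across groups, correlations of same-numbered libraries, each taken as deviations from its group mean, ran from -0.40 to 0.22, with 5 of 18 over 0.1. Of 36 matches of a library to another group, 14 were best with its own number. With the replicate block, 6, 4, 2, 5 and 2 members were called in the LPS responses of Hdac3f/f and Lyz2-Cre-Hdac3f/f, between untreated genotypes, between LPS-treated genotypes and in the interaction, against 6, 4, 2, 6 and 2 without it. Over all genes the block called 8717, 7687, 1886, 4990 and 1196, against 8584, 7564, 1684, 4656 and 1160 without it. The block ended the calls of C5ar1 between genotypes with LPS (-0.44, 0.0529) and of Vsig4 in the LPS response of Hdac3f/f (-1.25, 0.0572). Depth limited C2, at 66 to 146 counts per library, and Serping1 in Lyz2-Cre-Hdac3f/f with LPS, at 3 to 10 counts.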

Other observations

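The proportions of the C1q chains shifted slightly with treatment. The ratio of C1qb to C1qa per kilobase was 0.837 to 0.942 in untreated Hdac3f/f and 1.06 to 1.10 with LPS, so the libraries did not overlap. In Lyz2-Cre-Hdac3f/f it was 0.782 to 0.837 without LPS and 0.856 to 0.952 with it. The ratio of C1qc to C1qa overlapped in all groups, from 0.520 to 0.687 over the 12 libraries. C3 per summed C1q count went from 0.0722 to 0.109 in untreated Hdac3f/f to 0.242 to 0.402 with LPS, and from 0.182 to 0.212 to 0.321 to 0.426 in Lyz2-Cre-Hdac3f/f. These are descriptions chosen after the values were seen, with no test.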
